A study of Rattus norvegicus with 15 samples.

Results

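The genes described here are the 58 axon guidance ligands and receptors of the rat that were found in an RNA-seq table of prostate tissue, out of 22436 genes of which 18127 were protein coding. They were chosen by name alone: protein-coding genes whose symbol begins with Sema, Plxn, Efna, Efnb, Epha, Ephb, Slit, Robo or Ntn, without the Slitrk and Ntng genes. They comprise 20 semaphorins, 9 plexins, 8 ephrins, 13 Eph receptors, 3 Slits, 2 Robo receptors and 3 netrins. Prostate tissue of SD rats was sampled in 3 groups of 5. The LIPUS group received low-intensity pulsed ultrasound for 4 weeks, at 1.0 W/cm2 by the sample titles and 1.5 W/cm2 by the treatment field, so its intensity is uncertain. The Model group stands for a rat model of prostatitis and is labelled as untreated, and the Control group is labelled as untreated as well. How the prostatitis was induced, whether the ultrasound rats all carried it, and the age and sex of the rats are not stated in the labels. The labels also do not say that each sample came from its own animal, so the p-values below measure the spread between samples.

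Guidance cues were first described as signals that attract or repel growing axons, and the same families act on blood vessels, epithelia and immune cells. Semaphorins signal through plexins, and the secreted class 3 semaphorins mostly do so with neuropilins as co-receptors. Ephrins are tethered to the cell membrane and bind Eph receptor tyrosine kinases on neighbouring cells, with signalling in both directions. Slits are secreted ligands of Robo receptors, and netrins act through Dcc, neogenin and the Unc5 receptors. In the prostate, these families are carried by epithelium, stroma, vessels and nerve supply together, and in bulk tissue fewer cells of a type and less RNA per cell cannot be told apart.

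The libraries held 29675962 to 36402094 reads, but they divided them differently. Transcripts of the 13 mitochondrially encoded genes took 59.6 ± 15.7% of the reads in LIPUS, 34.9 ± 9.18% in Model and 4.23 ± 0.406% in Control (SD, n = 5 each). Reads left for all other genes numbered 5655932 to 19087279 in LIPUS, 18351107 to 27060260 in Model and 29557934 to 34696410 in Control. Among genes with 1 to 10 reads, a single read was the count of 12.998 to 15.7% in LIPUS and 11.9 to 17.4% in Model libraries, against 30.2 to 31.9% in Control libraries, so the low end of the counts also had another shape in Control. FPKM were therefore divided by a median-of-ratios factor per library (scaled FPKM), and changes are given as log2 of scaled FPKM plus 0.1, which understates the change of low genes. A gene was called where limma's adjusted p was under 0.05. Markers of prostate epithelium were abundant in all libraries, with the luminal list summing to 22400 to 110755 scaled FPKM in LIPUS, 18891 to 181391 in Model and 36922 to 67309 in Control. The Model library of replicate 7 (Model_7) stood apart from its group. Its log2 ratio of ventral to dorsolateral lobe secretory transcripts was 7.76, against −9.25 to −2.77 in the other Model libraries, −0.71 to 4.46 in LIPUS and 1.22 to 5.88 in Control. Called results that rest on it, and printed changes of single guidance genes against Control that it moved by over 1.5 times, are given with and without it.

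Most of these genes were low in prostate tissue, and their summed level was lower in every Model and LIPUS library than in any Control library, while LIPUS and Model overlapped. Summed over all 58 genes, the level was 24.3 ± 9.22 scaled FPKM in LIPUS, 33.2 ± 15.2 in Model and 67.6 ± 5.56 in Control (SD, n = 5 each). The Control libraries (61.2 to 76.0) did not overlap the LIPUS (16.8 to 40.1) or the Model libraries (7.52 to 46.7). The same sum in Model_7 was 7.52, against 32.4 to 46.7 in the other 4 Model libraries. A read on 22 to 42 of the genes was found in LIPUS libraries and on 28 to 49 in Model libraries, against 55 to 58 in Control libraries. Brought to the depth of the shallowest library, 5655932 non-mitochondrial reads, the expected numbers were 21.9 to 41.2 in LIPUS, 26.9 to 46.3 in Model and 51.4 to 54.0 in Control. This treats each read as independent, so it adjusts for depth and not for the other shape of the low counts in Control.

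**Figure D1:**
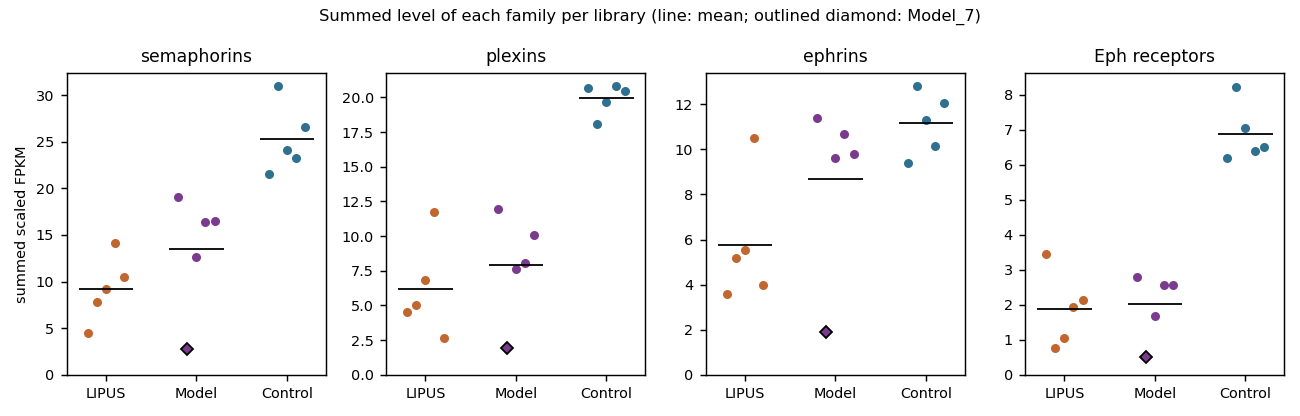
Summed scaled FPKM (vertical axis) of the semaphorins, plexins, ephrins and Eph receptors in each library of the LIPUS, Model and Control groups; points are libraries, lines are group means and the outlined diamond is Model_7. Semaphorins, plexins and Eph receptors do not overlap between Control and the other groups, ephrins do, and Model_7 is the lowest library in each of the 4 families.

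The share of all tested genes called lower was 20.2% in Model against Control and 15.3% were called higher. Of the 31 guidance genes that passed the filter on low values (above 0.5 FPKM in at least 5 libraries), 18 were called lower in Model than in Control and 0 higher by limma (19 had an unadjusted p under 0.05). In LIPUS against Control the share of all genes called lower was 14.3% and of those called higher 11.6%. Here 22 of the 31 were called lower and 0 higher (24 had an unadjusted p under 0.05). With limma-voom on recovered reads, 18 were lower in each of these comparisons and 0 higher. Over all 12490 genes, 3054 were then lower in Model and 1827 in LIPUS relative to Control. The LIPUS count was 11 with a pseudocount of 0.01 (1459 of 12490 genes) and 14 with a stricter filter (above 1 FPKM, 1580 of 10945 genes). The Model count was 11 with that filter (2275 of 10945 genes). Scaling set the size of these counts: with FPKM as deposited, 25 were lower in Model and 30 in LIPUS relative to Control (43.1% and 74.4% of all genes) and 0 were lower in LIPUS than in Model (13.3%). With quantile normalization, 13 were lower in Model and 15 in LIPUS relative to Control (17% and 12.4%). The 2 comparisons share the Control libraries, and 17 genes were called lower in both. Without overlap between the groups, 18 genes were lower in Model than in Control (18.3% of all genes tested) and 16 were lower in LIPUS than in Control (15.3%).

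These counts depend on which genes the filter kept. Of the 31, 20 had fewer than 5 Model and LIPUS libraries above 0.5 FPKM and so passed only with the help of Control libraries, and 10 of those had no Model or LIPUS library above it. The 10 were Epha2, Ephb3, Ntn1, Plxna1, Robo1, Robo2, Sema3g, Sema4c, Sema5a and Sema6d. The other 10 of the 20 were Efna3, Efnb2, Epha1, Plxnb1, Sema3b, Sema4b, Sema4g, Sema6a, Sema7a and Slit3. The filter favoured a lower level outside Control for all 20, and fixed it for the first 10 on the scale of FPKM as deposited, so their counts are a description and the adjusted p given below for each of them is no independent support for its direction. The other 11 were above 0.5 FPKM in 5 or more Model and LIPUS libraries, and of these 2 were called lower in Model than in Control, where the share over all genes of that kind was 16.2%. In LIPUS against Control 5 of the 11 were called lower, beside 10.7% of all such genes. Those 5 were Plxnb2, Sema3c, Ephb4, Plxnd1 and Sema3f, and the first 2 of them were also the pair called in Model against Control. The median log2 change of the 11 was −0.69 in Model against Control and −1.58 in LIPUS against Control, beside −0.01 and −0.04 over all such genes. The Model median rested on Model_7. Without that library, the Model changes of the 11 ran from −1.18 (Plxnb2) to 0.93 (Sema4d). Their middle value, that of Sema3f, was then −0.22. Over all 31, where the filter partly sets it, the median was −1.30 in Model against Control and −1.80 in LIPUS against Control, beside −0.15 and −0.15 over all genes tested. Without any filter, 28 of all 58 genes were called lower in Model and 28 in LIPUS relative to Control, beside 13% and 9.82% of all genes.

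**Figure D2:**
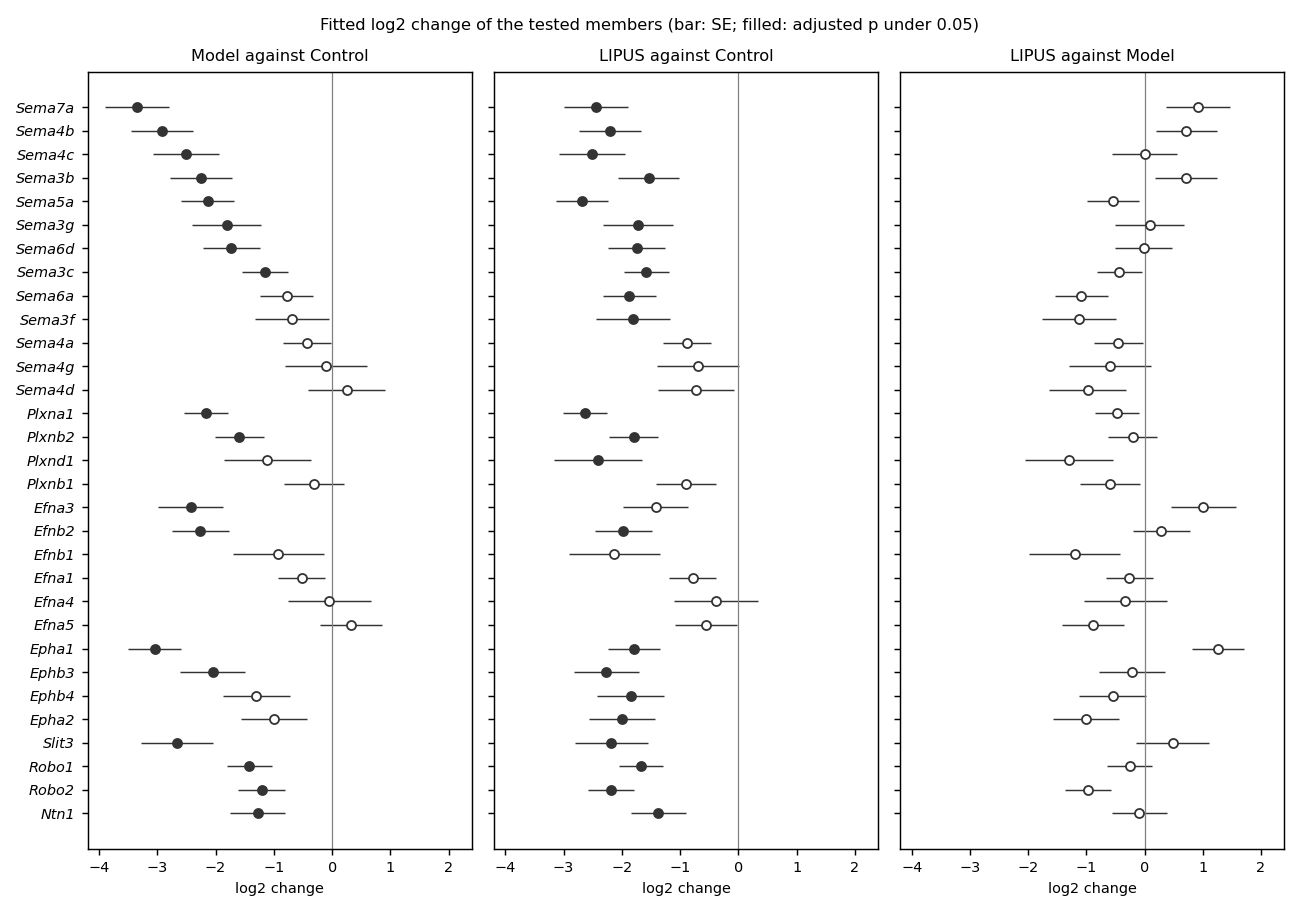
Fitted log2 change (horizontal axis, log2 of scaled FPKM plus 0.1) of the 31 tested guidance genes in Model against Control, LIPUS against Control and LIPUS against Model; points are estimates, bars are SE, and filled points have an adjusted p under 0.05. Filled points lie below 0 for 18 genes in Model against Control and 22 in LIPUS against Control, and there are 0 in LIPUS against Model.

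Semaphorins were the largest family, with 13 of 20 tested. In Model 8 and in LIPUS 10 were called lower than in Control, where 20.2% and 14.3% of all genes were. All of them but Sema3c and Sema3f passed the filter only with the help of Control libraries, so these counts are a description. Sema3c, a secreted class 3 semaphorin that binds neuropilins, had the highest mean over all 15 samples and in Control, while Sema4a was above it in LIPUS and in Model. In replicates 6 to 10 its level was 1.39, 1.47, 2.38, 3.11 and 3.62 scaled FPKM in LIPUS, 4.46, 0.947, 3.81, 5.08 and 3.09 in Model and 5.80, 8.22, 7.59, 5.91 and 7.28 in Control. All 5 Model and all 5 LIPUS libraries lay below the lowest Control library. Sema3c fell in Model against Control by 1.15 on the log2 scale (SE 0.39, limma adjusted p = 0.0308) and in LIPUS against Control by 1.58 (SE 0.39, limma adjusted p = 0.00768). Without Model_7, the Model change was −0.75 (limma adjusted p = 0.0338). The Model call was lost when Model replicate 10 or Control replicate 7, 8 or 10 was left out (adjusted p = 0.055 to 0.0663).

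Sema7a is a semaphorin held in the membrane by a lipid anchor, with Plxnc1 and beta-1 integrins as receptors. It had 0 reads in all 5 Model libraries, 769 reads over the 5 Control libraries, and 64 reads in LIPUS that came from 2 libraries. Its level was 0, 0.142, 0, 0.872 and 0 scaled FPKM in LIPUS replicates 6 to 10, and 0.601, 1.61, 1.00, 0.742 and 0.907 in Control. Set against a floor of 3 reads over the 5 Model libraries, Sema7a was at least 146-fold lower in Model than in Control, a bound that covers counting error only. The fitted change was −3.36 in Model against Control (SE 0.55, limma adjusted p = 0.0003) and −2.44 in LIPUS against Control (SE 0.55, limma adjusted p = 0.00451). LIPUS replicate 9, at 0.872, lay inside the Control range, so LIPUS and Control overlapped.

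Class 4 semaphorins are transmembrane proteins, and their calls split in the fit of all 15 libraries. Sema4b had 0.873, 0.383, 0.320, 1.21 and 0.230 scaled FPKM in LIPUS replicates 6 to 10, 0.888, 0.229, 0.256, 0 and 0.514 in Model and 3.39, 2.48, 2.25, 2.56 and 3.004 in Control. Sema4c, a ligand of Plxnb2, had 0, 0.305, 0.456, 0.721 and 0 in LIPUS, 0.510, 0.147, 0.113, 0.0684 and 0.245 in Model and 1.37, 1.95, 1.26, 1.66 and 1.44 in Control. Both genes were lower in every Model and LIPUS library than in any Control library. Sema4b changed by −2.92 in Model against Control (SE 0.53, limma adjusted p = 0.000654) and by −2.20 in LIPUS against Control (SE 0.53, limma adjusted p = 0.00687). Sema4c changed by −2.51 in Model against Control (SE 0.57, limma adjusted p = 0.00315) and by −2.51 in LIPUS against Control (SE 0.57, limma adjusted p = 0.00459). The other 3 tested class 4 genes, Sema4a, Sema4d and Sema4g, passed in neither comparison of that fit, and they are named after their values were seen. Sema4a, an activator of immune cells, was at 2.85 ± 0.682 scaled FPKM in LIPUS, 4.61 ± 2.31 in Model and 5.27 ± 0.915 in Control (SD, n = 5 each), with log2 changes of −0.43 in Model against Control and −0.88 in LIPUS against Control. Sema4d, the ligand of Plxnb1, had log2 changes of 0.25 and −0.73 in the same comparisons (limma adjusted p = 0.799 and 0.451). Without Model_7, the Model changes were 0.06 for Sema4a, 0.93 for Sema4d and 0.55 for Sema4g, against −0.43, 0.25 and −0.10 with it. Of these 3 Model changes, 0 were called. Every LIPUS library of Sema4a (up to 3.57) lay below every Control library (from 4.12). Its LIPUS against Control change was called without Model_7 (−0.89, limma adjusted p = 0.00574).

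Sema5a, a transmembrane semaphorin with thrombospondin repeats, was called in both comparisons, and its LIPUS change was the lowest of the 31. It had 0.0192, 0.0935, 0.127, 0.222 and 0.146 scaled FPKM in LIPUS replicates 6 to 10, 0.354, 0, 0.206, 0.291 and 0.407 in Model and 0.745, 1.97, 1.52, 0.911 and 1.50 in Control. The Control libraries lay above all others. Sema5a changed by −2.14 in Model against Control (SE 0.45, limma adjusted p = 0.00196) and by −2.69 in LIPUS against Control (SE 0.45, limma adjusted p = 0.000621). The secreted Sema3b had 0, 0.445, 0.366, 0.192 and 0 scaled FPKM in LIPUS, 0.141, 0, 0.163, 0 and 0 in Model and 0.453, 0.736, 0.552, 0.883 and 0.422 in Control. It fell in Model against Control by 2.25 (SE 0.53, limma adjusted p = 0.00403). LIPUS overlapped Control for Sema3b, and its change of −1.54 there (limma adjusted p = 0.0427) was lost when any of 8 single libraries was left out (adjusted p = 0.0529 to 0.101). The other called semaphorins were Sema3g and Sema6d in both comparisons, with changes of −1.81 to −1.73, and Sema3f and Sema6a in LIPUS against Control only, a difference between the groups that is tested in the comparison of LIPUS with Model below.

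**Figure D3:**
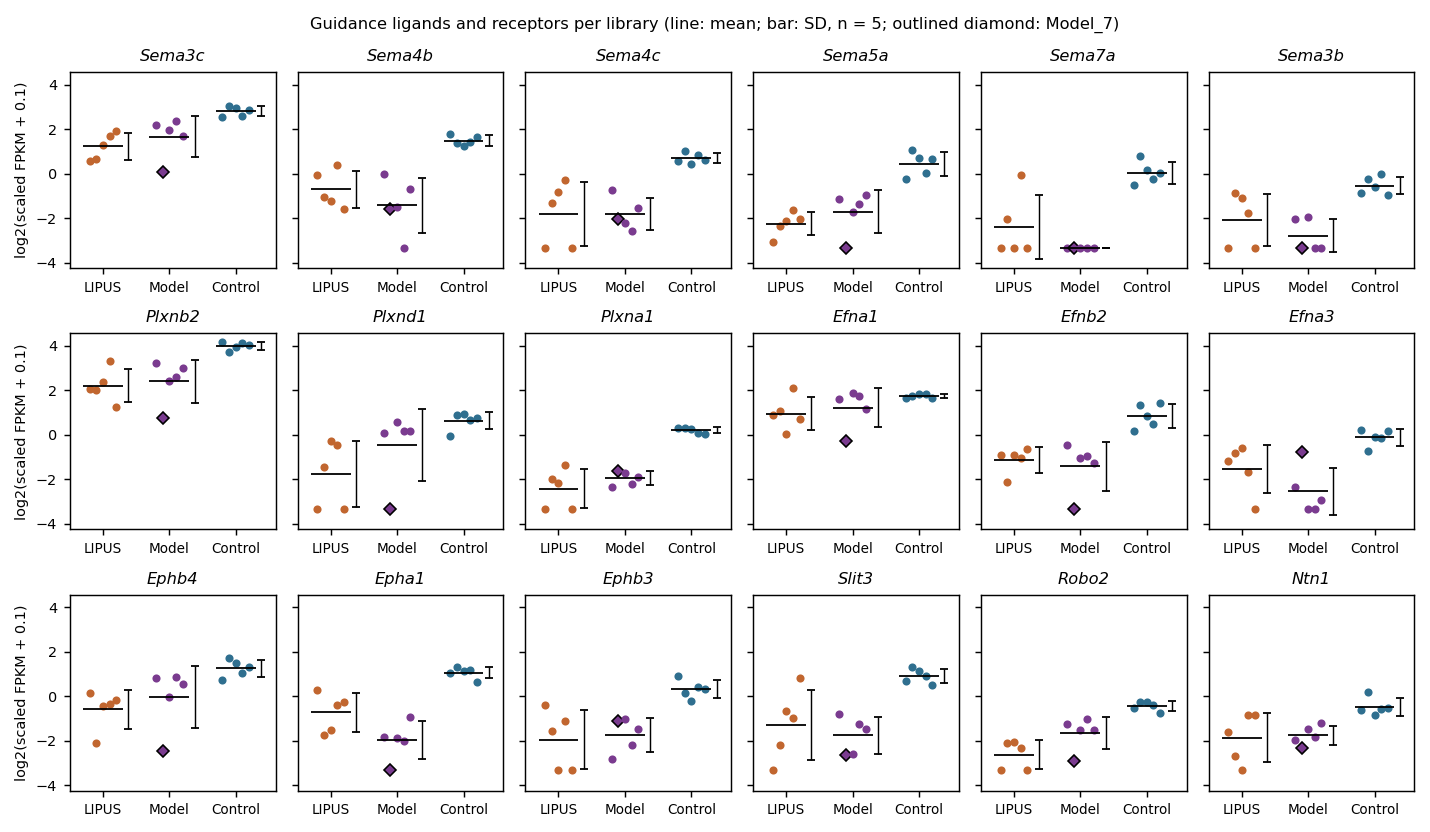
Level of 18 guidance genes in each library (vertical axis, log2 of scaled FPKM plus 0.1) in the LIPUS, Model and Control groups; points are libraries, lines are means, bars are SD (n = 5) and the outlined diamond is Model_7. Sema7a is at 0 scaled FPKM, drawn at log2 of 0.1, in all Model libraries, while Efna1 overlaps between all groups.

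Plexins are the semaphorin receptors, and 4 of 9 were tested. Plxnb2, a receptor of class 4 semaphorins, was the highest of all 58 genes. In replicates 6 to 10 it had 4.12, 3.90, 5.14, 9.78 and 2.28 scaled FPKM in LIPUS, 9.44, 1.60, 5.29, 5.96 and 7.87 in Model and 17.8, 13.2, 15.4, 17.3 and 16.5 in Control. The highest LIPUS and Model libraries lay below the lowest Control library. Plxnb2 fell 3.02-fold in Model against Control (log2 change −1.59, SE 0.42, limma adjusted p = 0.00808) and 3.48-fold in LIPUS against Control (log2 change −1.80, SE 0.42, limma adjusted p = 0.00552). Plxna1, which pairs with neuropilins to receive class 3 semaphorins, had 0, 0.154, 0.127, 0.291 and 0 scaled FPKM in LIPUS, 0.0965, 0.224, 0.208, 0.118 and 0.173 in Model and 1.16, 1.14, 1.11, 0.967 and 0.946 in Control. Its mean was 0.114 ± 0.121 in LIPUS, 0.164 ± 0.0554 in Model and 1.07 ± 0.101 in Control (SD, n = 5 each), without overlap with Control. Its log2 change was −2.17 in Model against Control (SE 0.38, limma adjusted p = 0.000506) and −2.64 in LIPUS against Control (SE 0.38, limma adjusted p = 0.000202). Plxnd1, a receptor known from vascular endothelium, had 0, 0.272, 0.724, 0.620 and 0 in LIPUS, 0.962, 0, 1.38, 1.03 and 1.04 in Model and 0.870, 1.76, 1.83, 1.52 and 1.58 in Control. LIPUS lay below Control, while Model overlapped it. Plxnd1 was called in LIPUS against Control (log2 change −2.41, SE 0.75, limma adjusted p = 0.028), a call lost without LIPUS replicate 6 or 10 or Control replicate 7, 8, 9 or 10 (adjusted p = 0.0549 to 0.0681). It was not called in Model against Control (log2 change −1.11, SE 0.75, limma adjusted p = 0.272), where the change was −0.39 without Model_7. With the lobe ratio as covariate, the Model change was called (−2.60, limma adjusted p = 0.0161), as it was with FPKM as deposited (−1.89, limma adjusted p = 0.0329). The fourth, Plxnb1, had log2 changes of −0.31 in Model against Control (0.15 without Model_7) and −0.90 in LIPUS against Control and passed in neither.

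Of 6 tested ephrins, 2 were called lower in Model and 1 in LIPUS relative to Control, where 20.2% and 14.3% of all genes were. Efna1, the anchored ligand best known for binding Epha2, was the highest. It had 1.75, 2.03, 0.931, 4.18 and 1.52 scaled FPKM in LIPUS replicates 6 to 10, 2.93, 0.725, 3.59, 3.23 and 2.16 in Model and 3.04, 3.24, 3.47, 3.45 and 3.11 in Control. The groups overlapped, and the log2 changes were −0.52 in Model against Control (limma adjusted p = 0.336) and −0.78 in LIPUS against Control (limma adjusted p = 0.17). Without Model_7, the Model change of Efna1 was −0.15. With the lobe ratio as covariate, Efna1 was called in Model (−1.19, limma adjusted p = 0.0496) and in LIPUS (−1.02, limma adjusted p = 0.0371) relative to Control. Efnb2, a transmembrane ephrin of arterial endothelium, had 0.431, 0.132, 0.429, 0.391 and 0.545 in LIPUS, 0.630, 0, 0.387, 0.411 and 0.317 in Model and 1.03, 2.44, 1.69, 1.30 and 2.605 in Control. No Model or LIPUS library reached the lowest Control library. Efnb2 changed by −2.26 in Model against Control (SE 0.49, limma adjusted p = 0.00223) and by −1.97 in LIPUS against Control (SE 0.49, limma adjusted p = 0.008). Efna3 had 0.339, 0.469, 0.560, 0.211 and 0 in LIPUS, 0.0970, 0.489, 0, 0 and 0.0337 in Model and 1.08, 0.512, 0.847, 0.797 and 1.04 in Control. Its change of −2.43 in Model against Control was called (SE 0.56, limma adjusted p = 0.00356), but not with the lobe ratio as covariate (−1.38, adjusted p = 0.0844), and that of −1.42 in LIPUS against Control was not (SE 0.56, limma adjusted p = 0.0761). The remaining ephrins, Efna4, Efna5 and Efnb1, ranged from −0.93 to 0.33 in Model against Control and from −2.13 to −0.39 in LIPUS against Control, and 0 of them passed. Without Model_7, Efnb1 was at −0.22 in Model against Control, against −0.93 with it, Efna5 at 0.73, against 0.33, and Efna4 at 0.85, against −0.05.

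Eph receptors were low, with 4 of 13 tested. Epha1, a receptor known from epithelia, had 1.12, 0.202, 0.2504, 0.655 and 0.727 scaled FPKM in LIPUS replicates 6 to 10, 0.185, 0, 0.175, 0.150 and 0.422 in Model and 1.95, 2.36, 2.09, 2.19 and 1.47 in Control. Control was above both other groups in every library. Epha1 changed by −3.05 in Model against Control (SE 0.45, limma adjusted p = 0.000133) and by −1.79 in LIPUS against Control (SE 0.45, limma adjusted p = 0.00912). Ephb3 had 0.661, 0.236, 0, 0.364 and 0 in LIPUS, 0.0405, 0.359, 0.389, 0.120 and 0.263 in Model and 1.80, 1.01, 0.771, 1.23 and 1.15 in Control. It changed by −2.05 in Model against Control (SE 0.56, limma adjusted p = 0.0104) and by −2.27 in LIPUS against Control (SE 0.56, limma adjusted p = 0.0082), again without overlap. With the lobe ratio as covariate, the Model change was −1.26 and not called (adjusted p = 0.154). Ephb4, the venous partner of Efnb2, was the highest of the receptors. It had 1.00, 0.132, 0.634, 0.682 and 0.778 in LIPUS, 1.68, 0.0837, 0.872, 1.74 and 1.36 in Model and 1.54, 3.18, 2.71, 1.96 and 2.42 in Control. LIPUS lay below Control, and Model overlapped it. Ephb4 was called in LIPUS against Control (log2 change −1.85, SE 0.58, limma adjusted p = 0.0284), and the call was lost without LIPUS replicate 7 or Control replicate 7, 8 or 10 (adjusted p = 0.0574 to 0.0689). Its change of −1.30 in Model against Control was not called (limma adjusted p = 0.092) and was −0.70 without Model_7. That change was called with the lobe ratio as covariate (−2.55, limma adjusted p = 0.00244) and with limma-voom (−1.63, adjusted p = 0.039). It was also called per non-mitochondrial reads (−1.61, limma adjusted p = 0.0467), with a pseudocount of 1 (−0.70, 0.0328) and as deposited (−2.08, 0.00463). Epha2 was called in LIPUS against Control only (0.2502 of the Control level on the fitted scale, log2 SE 0.57, limma adjusted p = 0.0177). Its log2 change was −0.99 in Model against Control, and −0.57 without Model_7.

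Of the 3 Slits, Slit3 alone passed the filter. It had 0, 0.117, 0.530, 0.404 and 1.67 scaled FPKM in LIPUS replicates 6 to 10, 0.471, 0.0610, 0.0639, 0.327 and 0.262 in Model and 1.51, 2.403, 2.08, 1.76 and 1.34 in Control. Model lay below Control, and 1 LIPUS library, replicate 10, lay inside the Control range. Slit3 changed by −2.66 in Model against Control (SE 0.62, limma adjusted p = 0.00401) and by −2.18 in LIPUS against Control (SE 0.62, limma adjusted p = 0.0182). Of its receptors, Robo2 had 0, 0.135, 0.141, 0.101 and 0 in LIPUS, 0.319, 0.0347, 0.246, 0.390 and 0.248 in Model and 0.590, 0.731, 0.745, 0.665 and 0.497 in Control. Robo2 changed by −2.18 in LIPUS against Control (SE 0.40, limma adjusted p = 0.00109) and by −1.21 in Model against Control (SE 0.40, limma adjusted p = 0.0281), and the Model call was lost without Model_7 (adjusted p = 0.0512) or Control replicate 7, 8 or 9 (up to 0.0597). Robo1 was called in both comparisons, at −1.42 in Model and −1.68 in LIPUS relative to Control. Among the netrins, Ntn1 had 0.227, 0.0551, 0, 0.467 and 0.463 in LIPUS, 0.155, 0.101, 0.259, 0.178 and 0.337 in Model and 0.548, 1.05, 0.453, 0.563 and 0.587 in Control. Its changes of −1.28 in Model against Control (limma adjusted p = 0.0455) and −1.37 in LIPUS against Control (limma adjusted p = 0.0434) passed narrowly. Leaving out any of 10 libraries ended the Model call (adjusted p = 0.0506 to 0.109), and any of 11 the LIPUS call (adjusted p = 0.0531 to 0.109).

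The start sites of Sema7a, Epha1, Plxnb2 and Sema3c are shown because the first 2 had the lowest changes in Model and the others were the receptor and the semaphorin with the highest means over all samples. RefSeq gives their promoters on build GRCr8, not on the rn6 build that the submitters' processing notes name. Each line holds the 250 bases before the gene's start, 5′ to 3′ on the gene's strand, and capitals mark the GC box GGGCGG or its reverse complement CCGCCC.
Sema7a, chr8:67244068-67244317, plus strand: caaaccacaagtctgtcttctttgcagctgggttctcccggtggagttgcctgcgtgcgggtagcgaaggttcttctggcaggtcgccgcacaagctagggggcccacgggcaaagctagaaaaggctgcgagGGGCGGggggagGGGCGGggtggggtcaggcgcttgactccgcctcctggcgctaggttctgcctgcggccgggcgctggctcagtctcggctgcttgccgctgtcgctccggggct
Epha1, chr4:72227475-72227724, minus strand: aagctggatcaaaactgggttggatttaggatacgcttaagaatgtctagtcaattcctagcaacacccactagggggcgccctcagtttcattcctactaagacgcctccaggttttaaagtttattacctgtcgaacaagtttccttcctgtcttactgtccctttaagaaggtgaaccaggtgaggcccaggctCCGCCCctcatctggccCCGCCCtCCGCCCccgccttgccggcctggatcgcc
Plxnb2, chr7:122137949-122138198, minus strand: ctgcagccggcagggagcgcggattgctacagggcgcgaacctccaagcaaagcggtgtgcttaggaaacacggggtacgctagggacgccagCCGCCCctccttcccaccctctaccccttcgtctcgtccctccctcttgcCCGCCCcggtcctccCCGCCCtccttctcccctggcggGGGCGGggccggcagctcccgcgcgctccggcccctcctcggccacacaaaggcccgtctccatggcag
Sema3c, chr4:18699628-18699877, minus strand: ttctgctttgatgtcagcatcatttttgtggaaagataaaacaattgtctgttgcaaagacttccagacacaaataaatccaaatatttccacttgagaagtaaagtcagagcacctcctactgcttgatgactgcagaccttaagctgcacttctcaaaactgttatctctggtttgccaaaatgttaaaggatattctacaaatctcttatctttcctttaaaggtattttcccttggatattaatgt
The promoter of Sema7a held 2 GC boxes and 20 CG dinucleotides, that of Epha1 3 boxes and 10 CG, and that of Plxnb2 4 boxes and 24 CG with 71.6% G or C. The Sema3c promoter held 0 of either, with 35.2% G or C. Promoters were matched for 45 of the 58 genes. Of these, 25 (55.6%) held a GC box on either strand, beside 32.4% of all 27457 promoters in the table. The letters TATAAA, on the gene's or the opposite strand, were in 0 of the 45 and in 13.1% of all promoters. The letters TGACGTCA were in 1 (2.22%), beside 1.70% of all promoters. The median number of CG dinucleotides was 14, beside 6 over all promoters.

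The 27 guidance genes below the filter had group means of at most 0.457 scaled FPKM, reached by Ntn4 in Control. Without a filter, 11 of them were called lower in Model than in Control and 10 in LIPUS than in Control, among them Sema3a, Sema3d, Plxna2, Plxna3, Efnb3, Epha4, Epha7, Ephb2, Ephb6 and Ntn3. The 10 genes are named after their values were seen. Sema3d, for example, changed by −1.42 in Model against Control (limma adjusted p = 4.78e-05) and by −1.49 in LIPUS against Control (limma adjusted p = 6.48e-05). In LIPUS, 9 genes had no read in any library: Sema3a, Plxnb3, Efnb3, Epha4, Epha6, Epha7, Epha10, Slit1 and Ntn3. In Model these were Sema7a, Epha6, Slit1 and Ntn3, and in Control 0 genes. Epha6 and Slit1 each had 1 read over all 15 libraries. A count of 0 does not show absence here: for a gene of 2 kb, 3 reads correspond to 0.0398 to 0.143 scaled FPKM in LIPUS, 0.0397 to 0.0499 in Model and 0.0226 to 0.0283 in Control.

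With all libraries in the fit, no guidance gene was called between LIPUS and Model. In LIPUS against Model, where 1.49% of all tested genes were called lower and 2.73% higher, limma called 0 of the 31 guidance genes in either direction, and limma-voom called 0 as well. At an unadjusted p under 0.05 there were 3: Epha1 at 1.26 (SE 0.45, limma adjusted p = 0.104), Robo2 at −0.97 (SE 0.40, limma adjusted p = 0.144) and Sema6a at −1.09 (SE 0.45, limma adjusted p = 0.15). The median log2 change was −0.34, beside −0.02 over all genes, and 23 of the 31 changes were negative.

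Leaving out Model_7 changed this comparison. The log2 lobe ratio of the Model libraries, then −9.25 to −2.77, no longer overlapped LIPUS (−0.71 to 4.46) or Control (1.22 to 5.88). A group difference without Model_7 therefore cannot be told apart from one of sampled lobe. In the fit of all libraries, every Model library but Model_7 also lay below all LIPUS and Control libraries in this ratio. The comparisons of Model with all libraries thus hold this lobe difference too, and its part in them was not tested. Without Model_7, 11 guidance genes were called lower in LIPUS than in Model and 1 higher. In this comparison 17.1% of all genes were called lower and 15% higher. The 11 were Sema3c, Sema3f, Sema4a, Sema4d and Sema6a, the receptors Plxnd1, Robo2, Epha2 and Ephb4, and the ephrins Efna4 and Efnb1. Plxnd1 changed most, by −2.02 (SE 0.58, limma adjusted p = 0.017), against −1.30 with all libraries. Sema4a changed by −0.95 (SE 0.23, limma adjusted p = 0.00694) and Sema3c by −0.83 (SE 0.27, limma adjusted p = 0.0303). The gene called higher was Efna3, at 1.45 (SE 0.50, limma adjusted p = 0.038). Sema4d shows the pattern of the libraries: it had 0.0654, 0.789, 0.252, 1.22 and 0.477 scaled FPKM in LIPUS replicates 6 to 10, and 1.57, 0.0554, 1.36, 1.84 and 1.49 in Model, so that 4 Model libraries lay above the highest LIPUS library and Model_7 below the lowest. Leaving out LIPUS replicate 10 as well, the library with the fewest non-mitochondrial reads, gave 10 lower (18.6% of all genes) and 1 higher (16.6%). Without Model_7, 16 guidance genes were lower and 1 higher in Model than in Control (25.9% and 21.2% of all genes), and 25 were lower and 0 higher in LIPUS than in Control (19.8% and 14.6%). The gene higher in Model was Efna4 (log2 change 0.85, SE 0.30, limma adjusted p = 0.0294), which had 2.12, 0, 2.77, 1.82 and 2.05 scaled FPKM in Model against 0.953, 1.57, 1.32, 0.906 and 1.15 in Control. Ntn1 was then no longer called in Model against Control (adjusted p = 0.073).

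**Figure D4:**
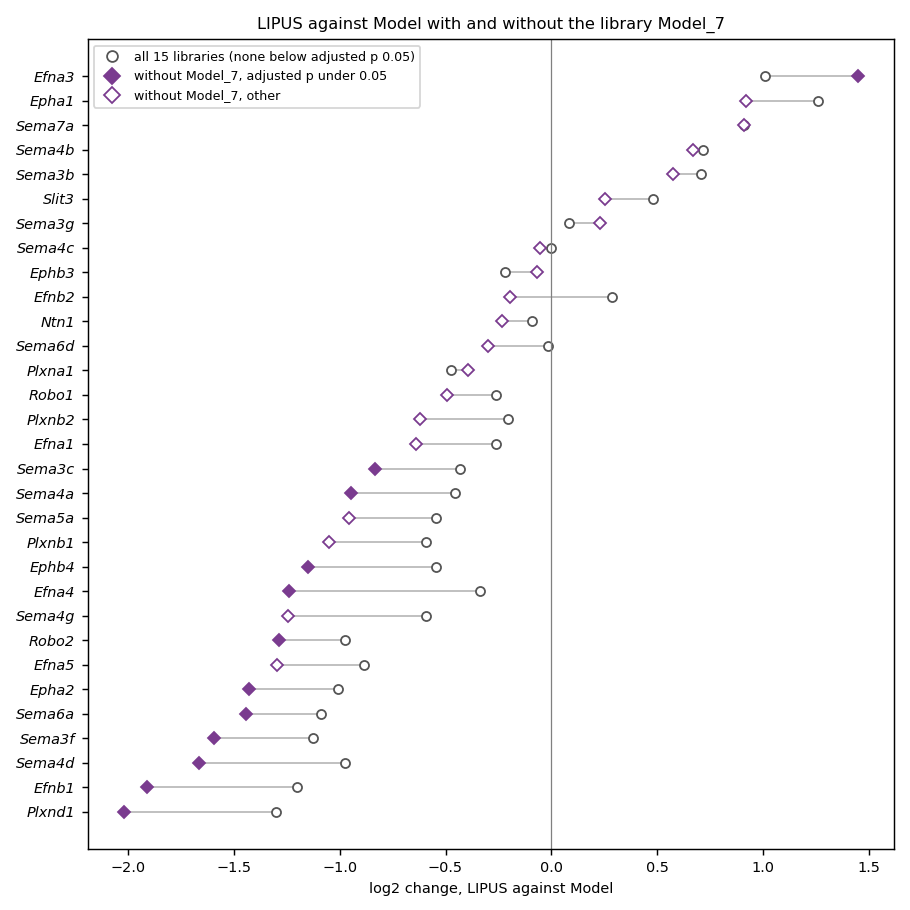
Log2 change of the 31 tested guidance genes in LIPUS against Model (horizontal axis) with all 15 libraries (open circles) and without Model_7 (diamonds, filled where the adjusted p is under 0.05). Without Model_7, 11 genes are filled below 0 and Efna3 is filled above 0.

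Genes that work with these families were counted from lists of co-receptors, other ligands and intracellular effectors. The same filter was applied, so a gene low outside Control could enter with the help of Control libraries. Nrp1, Nrp2, Unc5b and Rgma passed only with that help. For such genes the lower counts are a description, and an adjusted p against Control is no independent support for direction. Beside the counts of these lists, 20.2% of all genes were lower and 15.3% higher in Model against Control, 14.3% lower and 11.6% higher in LIPUS against Control, and 1.49% lower and 2.73% higher in LIPUS against Model. Of 10 tested co-receptors, 6 were lower and 0 higher in Model than in Control, and 4 were lower and 0 higher in LIPUS than in Control. Nrp1, the neuropilin of class 3 semaphorins, was at 0.798 ± 0.469 scaled FPKM in LIPUS, 0.642 ± 0.349 in Model and 2.22 ± 0.650 in Control (SD, n = 5 each). It changed by −1.71 in Model against Control (SE 0.38, limma adjusted p = 0.00289) and by −1.45 in LIPUS against Control (SE 0.38, limma adjusted p = 0.0116). Nrp2 changed by −1.78 (limma adjusted p = 0.014) and −2.28 (limma adjusted p = 0.00441), and the netrin receptor Neo1 by −1.10 (limma adjusted p = 0.0351) and −1.64 (limma adjusted p = 0.00562), in the same comparisons. Unc5b, a netrin receptor linked to repulsion, was the co-receptor called in LIPUS against Model. It had 1.10, 0.692, 0.656, 0.708 and 6.05 scaled FPKM in LIPUS, 0.0485, 0.0846, 0.0224, 0.130 and 0 in Model and 0.201, 1.43, 2.33, 0.423 and 0.428 in Control. Its groups LIPUS and Model did not overlap, and it changed by 3.10 in LIPUS against Model (SE 0.64, limma adjusted p = 0.0207) and by −2.39 in Model against Control (SE 0.64, limma adjusted p = 0.00896). The LIPUS call was lost in 7 of 26 alternatives (adjusted p up to 0.116), and that of Neo1 in Model in 5 of 27 (up to 0.0695).

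Of 8 tested genes for other ligands and modulators, 4 were lower in Model and 5 were lower in LIPUS than in Control, and 1 was higher in LIPUS than in Model. That gene was Adam10, a membrane protease that sheds ephrins and other guidance proteins. It had 6.22, 4.57, 8.11, 7.13 and 10.5 scaled FPKM in LIPUS replicates 6 to 10, 3.35, 3.34, 1.45, 1.00 and 2.03 in Model and 19.5, 14.8, 21.5, 19.0 and 17.7 in Control. The 3 groups did not overlap. Its call between LIPUS and Model was lost in 1 of 27 alternatives, a fit of these groups alone (adjusted p = 0.0984). Adam10 changed by 1.75 in LIPUS against Model (SE 0.30, limma adjusted p = 0.0103), by −3.12 in Model against Control (SE 0.30, limma adjusted p = 8.16e-06) and by −1.37 in LIPUS against Control (SE 0.30, limma adjusted p = 0.00414). Rgma, a membrane-anchored ligand of Neo1, was lower in Model (−2.34, limma adjusted p = 0.00757) and in LIPUS (−2.92, limma adjusted p = 0.0027) than in Control. Of 38 tested effectors, 14 were lower and 1 higher in Model than in Control, 2 were higher and 0 lower in LIPUS than in Model, and 7 were lower and 1 higher in LIPUS than in Control. Pak2, a kinase downstream of Rac and Cdc42, changed by −3.35 in Model against Control (SE 0.58, limma adjusted p = 0.000441) and by 2.26 in LIPUS against Model (SE 0.58, limma adjusted p = 0.0429). The actin-severing Cfl1 changed by 0.90 in LIPUS against Model (limma adjusted p = 0.0462), and Enah, an actin regulator downstream of Robo receptors, by 1.08 in Model against Control (limma adjusted p = 0.0273). Of 27 alternatives, the LIPUS call was lost in 20 for Pak2 (adjusted p up to 0.198) and in 20 for Cfl1 (up to 0.544), and the Enah call in 8 (up to 0.753).

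Markers of other cell types are given beside the guidance genes by list. Beside their counts, 20.2% of all genes were lower in Model and 14.3% in LIPUS relative to Control. Higher were 15.3% and 11.6% of all genes, and in LIPUS against Model 1.49% were lower and 2.73% higher. The same filter was applied, and a marker low outside Control, such as Kdr, passed only with the help of Control libraries. Lower counts of these lists are therefore a description. Of 12 endothelial markers, 5 were lower in Model and 9 were lower in LIPUS than in Control, and their summed level was 3.38 to 8.87 scaled FPKM in LIPUS, 1.70 to 12.2 in Model and 14.9 to 27.9 in Control. Kdr, the main endothelial VEGF receptor, was at 0.0180 ± 0.0403 in LIPUS, 0.362 ± 0.235 in Model and 1.23 ± 0.388 in Control (SD, n = 5 each). Of 12 fibroblast and matrix markers, 9 were lower in Model and 8 were lower in LIPUS than in Control, with sums of 94.8 to 635 in LIPUS, 74.8 to 196 in Model and 477 to 811 in Control. Their median log2 change was 0.81 in LIPUS against Model. Of 8 tested Schwann cell markers, 2 were lower in Model and 4 in LIPUS when set against Control, with sums of 8.93 to 47.4 in LIPUS, 6.57 to 23.9 in Model and 32.2 to 46.1 in Control. L1cam was at 0 in all LIPUS libraries and in all Model libraries but replicate 8 (0.0250 scaled FPKM). Foxd3 was at 0 in all Model libraries and in all LIPUS libraries but replicate 10 (0.556), and was only at 0.0426 to 0.0609 in Control. Of 8 tested markers of neurons and axons, 2 were lower in Model and 1 in LIPUS when set against Control, with sums of 9.36 to 108.5 in LIPUS, 4.82 to 15.4 in Model and 13.1 to 43.9 in Control. Their median log2 change was −1.57 in Model against Control, −0.27 in LIPUS against Control and 1.19 in LIPUS against Model, beside −1.30, −1.80 and −0.34 for the guidance genes. Elavl4 was at 0 in all LIPUS and all Model libraries and in Control replicate 10. Th and Dbh, the enzymes of noradrenaline synthesis, were at 0 in all Model libraries and also in Control replicate 10. In LIPUS replicates 6 to 10, Th was at 0, 0.0568, 0, 0 and 1.23 scaled FPKM and Dbh at 0, 0, 0, 0 and 0.934. The axonal growth protein Gap43 was at 7.33 ± 5.63 scaled FPKM in LIPUS, 1.28 ± 0.729 in Model and 2.34 ± 0.971 in Control, and the neuronal Uchl1 at 18.6 ± 19.0 in LIPUS, 7.55 ± 3.22 in Model and 11.1 ± 2.14 in Control (SD, n = 5 each), and neither was called in LIPUS against Control. LIPUS replicate 10 had the highest neuronal sum, 108.5. Of 10 smooth muscle markers, 3 were lower in Model and 3 in LIPUS when set against Control, and 1 was higher in LIPUS than in Model. Their sums were 243 to 1273 in LIPUS, 90.3 to 963 in Model and 738 to 1826 in Control. Of 12 luminal markers, 3 were higher and 3 lower in Model than in Control, and 2 were higher and 1 lower in LIPUS than in Control. Of 9 tested basal markers, 5 were lower in Model and 3 in LIPUS when set against Control. In LIPUS against Model, 1 luminal marker was lower and 2 basal markers were higher. Of 10 cell cycle genes, 9 were lower in Model and 9 in LIPUS relative to Control, and 4 were higher in LIPUS than in Model. Their sums were 21.7 to 36.1 in LIPUS, 10.997 to 27.2 in Model and 60.4 to 102.4 in Control. Of 6 tested adipocyte markers, 5 were lower in Model and 3 in LIPUS relative to Control, with sums of 1.91 to 49.4 in LIPUS, 0.450 to 10.1 in Model and 11.9 to 144 in Control. Of 12 macrophage markers, 2 were higher and 2 lower in Model than in Control. In LIPUS, 6 were higher than in Model and 7 were higher than in Control. Their sums were 188 to 670 in LIPUS, 97.6 to 274 in Model and 77.0 to 117 in Control. In Model_7 the endothelial sum was 1.70, against 8.65 to 12.2 in the other Model libraries, the Schwann sum 6.57, against 14.02 to 23.9, and the smooth muscle sum 90.3, against 430 to 963. The part of these cell markers, of the mitochondrial share and of the sampled lobe in the guidance results was not tested.

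Among the guidance genes, the 3 with the most similar levels were found for the highest member of each large family, as a description. Over the 15 samples, which include the differences between groups, Sema3c was most like Robo1 (Pearson r = 0.937), Sema5a (0.929) and Sema6d (0.899). Ephb4 was most like its ligand Efnb2 (r = 0.897), then Sema3c (0.894) and Sema5a (0.833). Plxnb2 was most like Sema5a (r = 0.880), Robo2 (0.861) and Sema3f (0.844). For Efna1 the closest were Efnb1 (r = 0.793), Sema4d (0.774) and Plxnb2 (0.764). All of these points share the libraries' depth and scaling.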

How the data were processed

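Per the labels' protocols, TRIzol was used to extract prostate RNA of 15 SD rat samples, and a VAHTS Universal V5 kit to make libraries. The submitters' processing notes name fastp, HISAT2, SAMtools, HTSeq, R 3.2.0, DESeq2 and build rn6, with no role or order; strand is not given in the sources used here. The authors deposited FPKM per gene, which were the unit used. FPKM were divided by a median-of-ratios factor per library, taken over 10313 genes above 0 in every library (mean factor 0.690 in LIPUS, 1.01 in Model and 1.73 in Control). Genes above 0.5 FPKM as deposited in at least 5 of 15 samples (12490) were tested on log2(scaled FPKM + 0.1) with limma 3.58.1 in R 4.3.3 (1 mean per group, all 15 samples, eBayes with trend), with Benjamini-Hochberg adjustment over all of them and a threshold of 0.05. The code was tested on simulated data. FPKM steps gave whole reads within 0.001 for 100.0% of values in all 22436 genes, which set the depths and the limma-voom alternative; reads lack molecular identifiers, so floors of 3 reads cover counting error only. Named genes were the 8 lowest and 8 highest called changes per comparison with a mean of at least 0.5 scaled FPKM in the higher group, and the highest gene of each family. The genes, lists and rules were chosen with earlier results of these data known, and the lists were taken up as a description. Alternatives covered scaling, pseudocount, filter, samples, replicate block, lobe covariate and leaving out each library; leaving out both Model_7 and LIPUS replicate 10 was chosen after seeing the data. Promoters came from RefSeq (GRCr8). Python 3.11.15, pandas 2.3.3, numpy 2.4.6 and matplotlib 3.10.9 were used.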

Additional observations from a re-analysis of the deposited data

Results flagged for a closer look

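Of 53 groups of 5 values examined for 18 guidance genes, 7 held a library that stood apart from the other 4 of its group on the log2 scale, where chance gives about 1 in 20. Efnb2 was lowest in LIPUS replicate 7 (0.132 scaled FPKM) and in Model_7 (0). Ephb4 was lowest in the same libraries, at 0.132 in LIPUS replicate 7 and 0.0837 in Model_7. Plxnd1 was lowest in Model_7 (0) and, among the Control libraries, in replicate 6 (0.870). Robo2 was lowest in Model_7 (0.0347). Model_7 thus gave 4 of the 7.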

How the results depend on the processing

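Under 12 other settings and 15 fits that each left out 1 library, 0 of the 31 called changes of the named genes reversed. For 13 of them the call was lost at least once: Ntn1 in Model (largest adjusted p = 0.398) and in LIPUS (0.333), Sema3b in LIPUS (0.284), Robo2 in Model (0.213), Plxnd1 in LIPUS (0.168), Ephb3 in Model (0.154), Epha1 (0.0912), Efnb2 (0.0894), Sema4b (0.0737), Ephb4 (0.0689) and Slit3 (0.0519) in LIPUS, and Efna3 (0.0844) and Sema3c (0.0663) in Model, each relative to Control. The Ephb3 and Efna3 values were with the ventral to dorsolateral lobe ratio as covariate. That covariate also gained calls: Ephb4 (−2.55), Plxnd1 (−2.60) and Efna1 (−1.19) in Model and Efna1 (−1.02) in LIPUS, each relative to Control. Lower calls in Model against Control numbered 28 without a filter and 11 under a stricter one (above 1 FPKM); those in LIPUS against Control numbered 14 under the stricter filter and 11 with a pseudocount of 0.01. Leaving out each library gave 14 to 18 lower and 0 to 1 higher calls in Model against Control, 0 to 11 lower and 0 to 1 higher in LIPUS against Model, and 16 to 25 lower in LIPUS against Control. Over all 12490 genes, the same fits gave 2006 to 3238 lower and 1588 to 2652 higher in Model against Control. They gave 19 to 2136 lower and 92 to 1877 higher in LIPUS against Model, and 1262 to 2467 lower in LIPUS against Control. Without both Model_7 and LIPUS replicate 10 there were 10 lower and 1 higher in LIPUS against Model (2321 and 2070 over all genes). In Model against Control there was then 1 higher (3008 over all genes). The cause was not tested. Scaling moved the median of all genes: in Model against Control it was −0.90 as deposited, −0.37 per non-mitochondrial reads, 0.05 with quantile normalization and −0.15 in the values reported, and in LIPUS against Control −1.48, −0.24, 0.01 and −0.15. Higher and lower calls over all genes in Model against Control numbered 368 and 5382, 1244 and 2854, 2527 and 2121, and 1912 and 2525 in the same order. Guidance genes called lower numbered 25, 19, 13 and 18 in Model and 30, 22, 15 and 22 in LIPUS relative to Control. Lower calls over all genes in LIPUS against Control numbered 9296, 1782, 1554 and 1782 in that order. Fitting only LIPUS and Model gave 1 higher and 0 lower call over all genes, beside 341 and 186 with all groups in the fit. Samples sharing a replicate number showed little shared deviation from their group means (15 pairs, r −0.42 to 0.25, 3 over 0.1, 0 samples closest to their own number). These correlations cannot exclude a shared batch, and the labels do not say what the number marks. With the replicate block, 16 guidance genes were lower in Model and 18 in LIPUS relative to Control, and 0 differed between LIPUS and Model. Over all 12490 genes, 2361 were then lower in Model and 1563 in LIPUS relative to Control. The changes that reversed were all uncalled ones of LIPUS against Model. With the lobe covariate these were Sema4c (0.12), Sema5a (0.12), Efna1 (0.17), Ephb4 (0.26), Plxnb2 (0.25), Sema3c (0.19) and Ntn1 (0.083). With voom they were Slit3 (−0.12) and Sema5a (0.0056), with a pseudocount of 1 Sema4c (0.070), Ephb3 (0.0022) and Ntn1 (0.028), with quantile normalization Sema4c (0.052), fitting only the groups compared Sema4c (0.043), and as deposited Efnb2 (−0.18). Without both libraries they were Slit3 (−0.28), Sema4c (0.32), Efnb2 (−0.32) and Ephb3 (0.28). Leaving out single libraries gave ranges of −0.054 to 1.00 for Slit3, −0.40 to 0.38 for Sema4c, −0.19 to 0.53 for Efnb2, −0.62 to 0.12 for Ephb3, −0.62 to 0.034 for Plxnb2 and −0.37 to 0.27 for Ntn1. Depth limits the low genes: the floor of 3 reads for a 2 kb gene reached 0.143 scaled FPKM in LIPUS, 0.0499 in Model and 0.0283 in Control.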
